A study of Rattus norvegicus with 9 samples.

Results

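Cathepsins are the proteases of the lysosome, and the expression of 10 of their genes was followed in rat chondrocytes exposed to thrombin. The genes were taken by symbol from the deposited table of 18924 genes: Ctsa, Ctsb, Ctsc, Ctsd, Ctsf, Ctsh, Ctsk, Ctsl, Ctss and Ctsz, each with 1 row. The cells were primary chondrocytes of Sprague-Dawley rats, grown in medium with fetal bovine serum and used at passage 1 or 2. Groups of 3 libraries each were taken after 24 h in rat plasma alone (RP), in rat plasma with thrombin, the clotting protease that also activates cell-surface receptors (RPT), or in rat plasma with thrombin and an inhibitor (RPTi). Plasma was thus common to every group, no untreated culture was among the samples, and the labels do not name the inhibitor. No group had the inhibitor without thrombin, so its action on thrombin and any other effect of it cannot be told apart. Nothing in the labels ties the libraries of a group to separate rats or cultures. The p-values therefore describe the spread among these libraries only, and that spread may be technical.

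Cathepsins are made as inactive precursors, are delivered to the lysosome largely by mannose 6-phosphate receptors and become active at acid pH. Most are papain-like cysteine proteases, whereas cathepsin D is an aspartic protease and cathepsin A a serine carboxypeptidase. In cartilage and bone they are known for breaking down collagen and proteoglycan, and cystatins hold the cysteine members in check. Transcript counts say nothing of precursor processing, secretion or enzyme activity.

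Library totals ranged from 31877265 to 43962783 counts, and 13856 genes passed the filter on low counts. Of the 10 cathepsins 9 passed, and Ctss did not. The 10 chondrocyte markers examined (Col2a1, Acan, Comp and 7 others) were all expressed, with a summed level of 39476 to 42058 CPM (counts per 1e6 counts, scaled between libraries) in RP. Their sum was 24314 to 27458 CPM in RPT and 66981 to 72228.5 CPM in RPTi, and all 10 fell with thrombin and rose with added inhibitor. Of all tested genes, 15.2% fell with thrombin and 20.4% rose with added inhibitor. The 6 fibroblast markers summed to 15737 to 17019 CPM in RP, 9505 to 10382 CPM in RPT and 16042 to 17657 CPM in RPTi. Of these, 4 fell with thrombin (66.7%), beside 28.9% of all tested genes that rose or fell. With added inhibitor 3 rose and 2 fell (83.3%), beside 41.5% of all tested genes. Most of the fibroblast marker sum was Col1a1, which fell 1.83-fold and rose 1.91-fold, while Pdgfra fell 1.62-fold with added inhibitor. The 4 that fell were 2 without RP replicate 3 or RPT replicate 2. In these bulk libraries fewer cells of a type and less RNA per cell cannot be told apart, and the part of these marker shifts in the cathepsin values was not tested.

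Compared per unit of transcript length, as FPKM (fragments per kilobase of gene and per 1e6 counts, computed by the authors), the cathepsins spanned more than 3 orders of magnitude. In RP, the aspartic protease gene Ctsd was highest at 822 ± 53.0 FPKM (SD, n = 3), followed by the endopeptidase genes Ctsl at 699 ± 56.7 FPKM and Ctsb at 532 ± 18.2 FPKM. These 3 genes made up 82.3% to 84.7% of the summed cathepsin FPKM in each of the 9 libraries. Ctsa stood at 252 ± 9.79 FPKM and the aminopeptidase gene Ctsh at 90.4 ± 2.31 FPKM. The next tier held Ctsz (27.7 ± 1.90 FPKM), Ctsf (22.7 ± 1.26 FPKM) and Ctsk (22.1 ± 1.82 FPKM). Ctsc, for dipeptidyl peptidase I, reached only 1.07 ± 0.176 FPKM and Ctss 0.213 ± 0.0261 FPKM.

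In RP, neighbours in this order did not overlap between libraries, except Ctsf and Ctsk. The order of the means changed at the top with thrombin, although in RPT replicate 2 Ctsd (703 FPKM) stayed above Ctsl (657 FPKM). In RPT, Ctsl (725 ± 93.9 FPKM), Ctsd (655 ± 53.7 FPKM) and Ctsb (615 ± 27.1 FPKM) overlapped with their neighbours, while in RPTi Ctsd (861 ± 16.2 FPKM) again stood clear of Ctsl (664 ± 23.9 FPKM) and Ctsb (501 ± 2.45 FPKM). The summed FPKM of the 10 genes was 2469.9 ± 26.6 in RP, 2377 ± 5.16 in RPT and 2449.7 ± 36.7 in RPTi (SD, n = 3). FPKM carry no scaling between libraries, so these sums are not compared between groups. The scaling factors behind the CPM were 1.01 to 1.03 in RPT and 0.968 to 0.977 in RPTi.

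**Figure D1:**
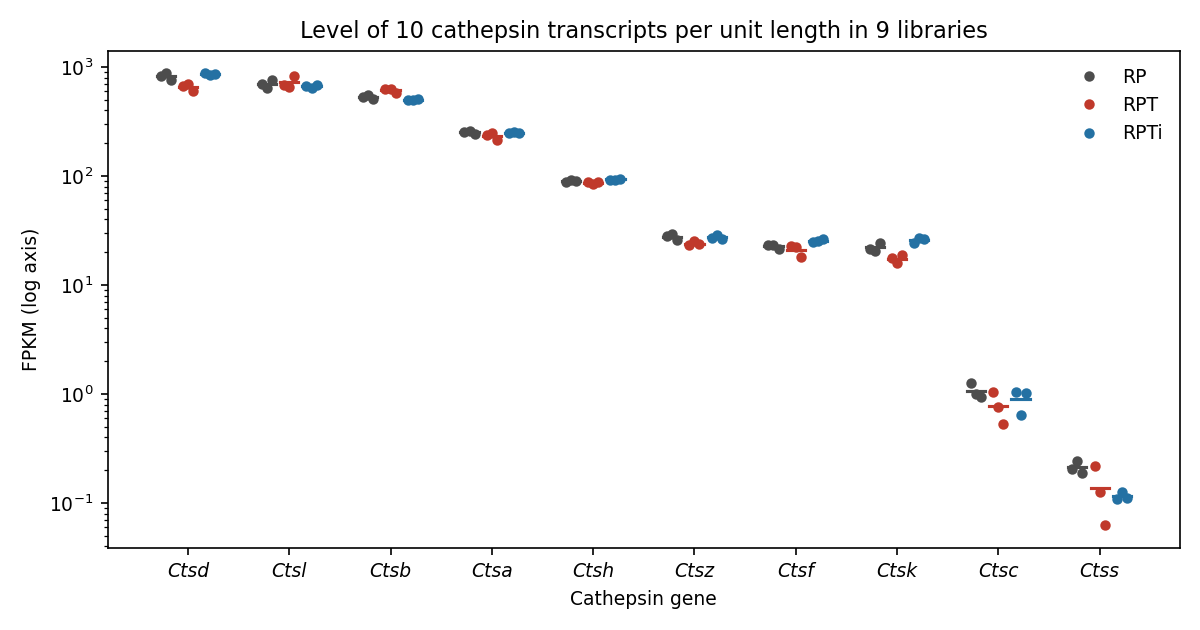
FPKM on a log axis for the 10 cathepsin genes, ordered by their mean in RP; points are libraries, short lines are means of 3, grey RP, red RPT and blue RPTi. Ctsd, Ctsl and Ctsb lie at the top of every group, and Ctsc and Ctss lie far below the other 8 genes.

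Transcription factors of the MiT/TFE family (Tfeb, Tfe3, Mitf) are known to drive lysosomal genes through the CLEAR element, whose core is the E-box CACGTG. The 250 bases before each annotated start of a member were searched for it. RefSeq promoters of the build GRCr8 were matched for 9 of the 10 members, all but Ctsb. CACGTG, which reads the same on both strands, was found in 2 of the 9, Ctsd and Ctsf, and in 5.59% of all 33469 promoters of this length. TGANTCA (AP-1) and TTCNNNGAA (STAT), each of which also covers its reverse strand, were found in none of the 9 and in 6.34% and 7.67% of all promoters. No match says only that these letters are not in this window. Shown are both promoters with a match and, as the member with the largest called change, Ctsk, each 5′ to 3′ on the strand of the gene up to the base before the start, with CACGTG in capitals.

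Ctsd, chr1:206968822-206969071, minus strand: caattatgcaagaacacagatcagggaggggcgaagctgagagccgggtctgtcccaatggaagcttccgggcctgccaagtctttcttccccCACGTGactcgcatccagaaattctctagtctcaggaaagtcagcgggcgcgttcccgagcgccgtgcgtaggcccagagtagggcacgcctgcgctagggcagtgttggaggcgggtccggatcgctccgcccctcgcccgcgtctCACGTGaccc
Ctsf, chr1:211581919-211582168, plus strand: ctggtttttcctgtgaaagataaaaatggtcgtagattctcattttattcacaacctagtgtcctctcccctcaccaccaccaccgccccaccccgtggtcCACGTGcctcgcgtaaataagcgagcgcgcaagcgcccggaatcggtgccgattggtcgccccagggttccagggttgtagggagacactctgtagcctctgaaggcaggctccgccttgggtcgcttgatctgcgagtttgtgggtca
Ctsk, chr2:185747298-185747547, plus strand: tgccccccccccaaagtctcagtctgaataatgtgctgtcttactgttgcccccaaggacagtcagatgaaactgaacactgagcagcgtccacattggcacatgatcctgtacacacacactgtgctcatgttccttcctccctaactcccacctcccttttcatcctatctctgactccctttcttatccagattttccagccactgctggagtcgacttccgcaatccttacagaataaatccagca

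The Ctsd promoter held the motif at 157 to 152 and again at 10 to 5 bases before the start, and the Ctsf promoter once, at 149 to 144 bases. These windows had a GC content of 63.2% for Ctsd, 56.8% for Ctsf and 49.6% for Ctsk. A match is a description of the sequence and not a binding site.

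With thrombin, cathepsin transcripts shifted by small amounts and in both directions. Of the 9 tested genes Ctsd, Ctsk and Ctsz fell and Ctsb rose, and 5 did not pass (edgeR's quasi-likelihood test, adjusted p below 0.05). That is 44.4% of the tested members, beside 28.9% of all 13856 tested genes, of which 13.6% rose and 15.2% fell. The fitted log2 fold changes ran from -0.49 to 0.19, with a median of -0.13 against -0.000707 over all tested genes, and their median size of 0.19 was close to the 0.21 of all genes. None reached a log2 fold change of 1 in size, which 711 of the called genes did. The CPM ranges of RP and RPT did not overlap for 5 of the 9 (Ctsb, Ctsd, Ctsh, Ctsk and Ctsz), beside 40.4% of all tested genes.

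Adding the inhibitor to thrombin moved more of them, mostly upwards. Ctsa, Ctsd, Ctsf, Ctsh, Ctsk and Ctsz rose between RPT and RPTi, Ctsb fell, and Ctsc and Ctsl did not pass. The 7 called members are 77.8% of those tested, and 41.5% of all genes were called in this comparison, 20.4% rising and 21.1% falling. The largest member change was Ctsk at 0.64 on the log2 scale, and the median was 0.26 against -0.00827 over all tested genes, again with a median size (0.26) close to that of all genes (0.27). The CPM ranges of RPT and RPTi did not overlap for these 7, beside 50.8% of all tested genes. Without scaling between libraries, only Ctsd, Ctsf and Ctsk rose, and the share of all called genes that rose was then 38.4% in place of 49.2%. Without RPT replicate 1 the same 3 genes rose in place of 6.

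Between thrombin with inhibitor and plasma alone, only Ctsk passed, higher in RPTi, and none fell. This is 11.1% of the tested members beside 24.2% of all genes. The share of all called genes that rose was 49.1%, and 36.6% without scaling between libraries. The CPM ranges of RP and RPTi did not overlap for Ctsf, Ctsh and Ctsk, all higher in RPTi, beside 43.9% of all tested genes. Both comparisons with RPT share the RPT libraries, and both with RP share the RP libraries, so that they are not independent of each other. Over the 3 groups together, 6 of the 9 tested members differed in the F test, beside 46.7% of all genes, and Ctsk had the smallest p of them (adjusted p = 0.000183).

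**Figure D2:**
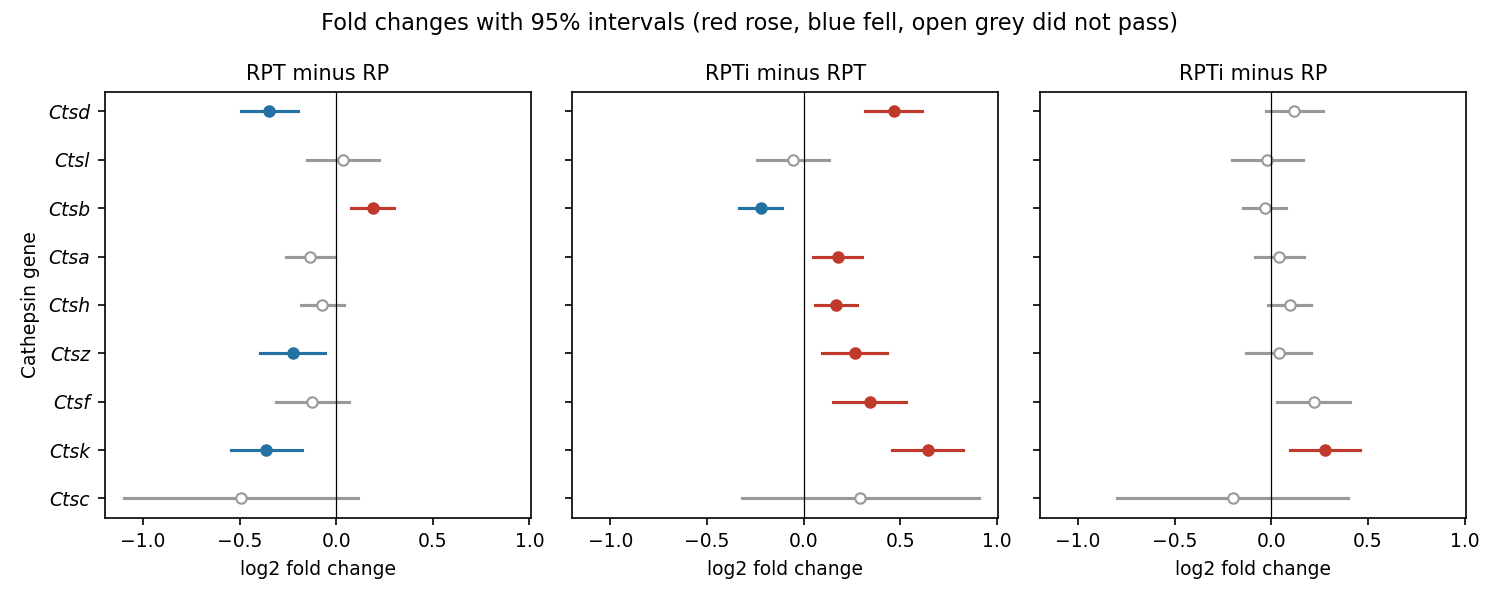
Fitted log2 fold changes of the 9 tested cathepsins in the 3 comparisons, with 95% intervals; filled red points rose, filled blue points fell and open grey points did not pass. Ctsd and Ctsk lie left of 0 for thrombin and right of 0 for added inhibitor, Ctsb lies on the other side each time, and Ctsl lies near 0 throughout.

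Among the endopeptidases, Ctsd (ENSRNOG00000020206), whose product is the main aspartic protease of lysosomes, was measured at 1666, 1760.2 and 1525.5 CPM in RP, 1301, 1403 and 1189 CPM in RPT, and 1827, 1758 and 1793 CPM in RPTi. The RPT libraries were all below the RP and RPTi libraries, and RP and RPTi overlapped. The fall with thrombin was 1.27-fold (log2 fold change -0.35, SE 0.07, adjusted p = 0.00208) and the rise with inhibitor 1.38-fold (0.47, SE 0.07, adjusted p = 0.000124). Both calls were kept in each of the 17 alternative analyses. RPTi against RP gave 0.12 (95% interval -0.03 to 0.27, adjusted p = 0.225).

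Ctsb (ENSRNOG00000010331), for a protease that cuts both inside and at the carboxyl end of its substrates, was the member that moved the other way. Its levels were 1035, 1064 and 980.1 CPM in RP, 1188, 1204 and 1117 CPM in RPT, and 1003, 1001 and 1003 CPM in RPTi. The RPT libraries were all higher than the other 6. Ctsb rose 1.14-fold with thrombin (log2 fold change 0.19, SE 0.05, adjusted p = 0.0157) and fell 1.17-fold with the inhibitor (-0.22, SE 0.05, adjusted p = 0.00388). The rise was not called when RP replicate 1 was left out (adjusted p = 0.0524), nor when RP replicate 3 (0.0603) or RPT replicate 1 (0.0558) was, while the fall was kept in all 17 alternatives.

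With these opposite shifts, Ctsb transcripts stood at 0.648 ± 0.0199 of the Ctsd FPKM in RP, 0.941 ± 0.0429 in RPT and 0.582 ± 0.0107 in RPTi (SD, n = 3). The single libraries ran from 0.629 to 0.669, from 0.894 to 0.978 and from 0.571 to 0.593, so that the 3 groups did not overlap. This ratio was formed after the values of its genes were known and is given as a description, with no test.

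Ctsl (ENSRNOG00000018566), for a potent cysteine endopeptidase, did not pass in any comparison. It was at 1138, 1055 and 1224 CPM in RP, 1091, 1065 and 1347 CPM in RPT, and 1146, 1079 and 1146 CPM in RPTi, and the ranges of all 3 groups overlapped. RPT against RP gave a log2 fold change of 0.04 with a 95% interval of -0.15 to 0.22, and RPTi against RPT gave -0.06 with an interval of -0.24 to 0.13. Without RPT replicate 3, the highest library, both log2 fold changes switched sign, to -0.08 and 0.06. RPT against RP also switched sign without RP replicate 2 (-0.02).

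Ctsk (ENSRNOG00000021155), for the collagen-degrading cathepsin best known from bone-resorbing osteoclasts, was among the less abundant members and showed the largest called changes. It stood at 30.4, 29.2 and 33.7 CPM in RP, 24.3, 22.1 and 26.2 CPM in RPT, and 35.7, 39.6 and 37.9 CPM in RPTi. The 3 groups did not overlap, with RPT lowest and RPTi highest. The fall with thrombin was 1.29-fold (log2 fold change -0.36, SE 0.08, adjusted p = 0.00668) and the rise with inhibitor 1.56-fold (0.64, SE 0.08, adjusted p = 5.7e-05), and both were kept in all 17 alternatives. The 1.21-fold excess of RPTi over RP (adjusted p = 0.0288) was not called without RP replicate 1 (adjusted p = 0.0973), RP replicate 2 (0.0991), RPTi replicate 2 (0.112) or RPTi replicate 3 (0.0795).

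Markers of osteoclasts were scarce beside Ctsk. Of 6 in the table, Acp5 (9.92 ± 1.20 CPM in RP, SD, n = 3) was the single one tested and it did not pass in any comparison. Its log2 fold change with thrombin was -0.37 (95% interval -0.69 to -0.05, adjusted p = 0.0829), beside -0.36 in Ctsk. With added inhibitor Acp5 gave 0.11 (adjusted p = 0.604), beside 0.64 in Ctsk. RPTi against RP gave -0.26 in Acp5 (adjusted p = 0.225) and 0.28 in Ctsk. Over all 9 libraries Calcr had 1 count, Ocstamp 2, Tnfrsf11a 4, Atp6v0d2 37 and Oscar 48. The summed osteoclast marker level was 9.06 to 11.2 CPM in RP, 6.07 to 9.26 CPM in RPT and 8.07 to 9.13 CPM in RPTi, and its part in the Ctsk values was not tested.

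Ctsf (ENSRNOG00000019708), for a papain-like protease with a long cystatin-like propeptide, had 43.5, 43.3 and 38.9 CPM in RP, 41.3, 40.8 and 33.2 CPM in RPT, and 47.6, 48.6 and 49.97 CPM in RPTi. The RPTi libraries were above all 6 others, and RP and RPT overlapped. The change with thrombin did not pass (log2 fold change -0.12, 95% interval -0.31 to 0.07), and the rise with inhibitor was 1.27-fold (0.34, SE 0.09, adjusted p = 0.00714) and kept in all 17 alternatives. RPTi against RP gave 0.22 (adjusted p = 0.0872), which passed without RPT replicate 3 (adjusted p = 0.022).

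Ctss (ENSRNOG00000021157), for the protease that trims the invariant chain of MHC class II in antigen-presenting cells, had 9, 8 and 7 counts in RP, 8, 4 and 2 in RPT, and 4 in each RPTi library. In RPT replicate 3 the count was below 3, the limit used here for detection, and no fold is given. With no filter on low counts the test gave adjusted p-values of 0.474 to 0.892 in the 3 comparisons. Ctss and Ctsk are neighbours among the named protein-coding genes of rat chromosome 2 in the assembly GRCr8, yet in RP they stood at 22.1 and 0.213 FPKM, with Ctsk the more abundant.

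Genes of the cells that use cathepsin S were thinly counted too. Of 6 MHC class II genes in the table, Cd74 among them with 11 counts over 9 libraries, none passed the filter, and their sum was 0.417 to 0.581 CPM in RP, 0.0915 to 0.366 CPM in RPT and 0.335 to 0.517 CPM in RPTi. Of 14 macrophage markers 5 were tested. Their sum was 25.2 to 29.5 CPM in RP, 45.8 to 47.2 CPM in RPT and 25.8 to 30.2 CPM in RPTi, most of it Cd14 (21.4, 40.3 and 24.2 CPM on average), while the pan-leukocyte gene Ptprc had 15 counts over all 9 libraries and the complement gene C1qc 1. Of the 5 tested macrophage markers, 2 rose and 1 fell with thrombin (60%), beside 28.9% of all tested genes called. Cd14 rose 1.89-fold (adjusted p = 5.6e-06) and Cd68 rose 1.51-fold (adjusted p = 0.0155), Csf1r fell 1.93-fold (adjusted p = 0.0449), and Lyz2 (log2 fold change -0.51) and Fcer1g (0.04) did not pass. The Csf1r call was lost in 13 of 16 alternatives, leaving out any one library other than RP replicate 2 among them (adjusted p up to 0.164), and the Cd68 call without RP replicate 3 (adjusted p = 0.0588). With added inhibitor 2 of the 5 fell and none rose (40%), beside 41.5% of all tested genes called. Cd14 fell 1.66-fold (adjusted p = 1.7e-05) and Cd68 fell 2.06-fold (adjusted p = 0.000271), both kept in all 17 alternatives. Csf1r (log2 fold change 0.06), Lyz2 (-0.17) and Fcer1g (0.27) did not pass there. The part of macrophage transcripts in the Ctsb rise with thrombin and fall with inhibitor was not tested.

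The remaining members are exopeptidases. Ctsz (ENSRNOG00000050697), for the carboxypeptidase cathepsin X, had 37.9, 39.8 and 34.2 CPM in RP, 30.3, 33.8 and 31.6 CPM in RPT, and 37.7, 40.3 and 36.9 CPM in RPTi. The RPT libraries were all below the others, although the highest of them (33.8 CPM) lay close to the lowest RP library (34.2 CPM). The 1.17-fold fall with thrombin lay just under the threshold (log2 fold change -0.23, SE 0.08, adjusted p = 0.0453) and did not pass in 11 of 17 alternatives, among them those without RP replicate 1 (adjusted p = 0.132), RP replicate 2 (0.143), RPT replicate 1 (0.156), RPT replicate 3 (0.0772) or any one RPTi library (0.0514 to 0.0629). The 1.20-fold rise with inhibitor (0.26, SE 0.08, adjusted p = 0.0159) did not pass without RPT replicate 1 (adjusted p = 0.0701) or RPTi replicate 2 (0.0653).

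Ctsh (ENSRNOG00000014064), for an aminopeptidase, varied little between replicates, with 153, 162 and 157 CPM in RP, 151, 147 and 151 CPM in RPT, and 167.6, 167.5 and 168.9 CPM in RPTi. The 3 groups did not overlap, and the steps were small. Thrombin gave -0.07 (95% interval -0.18 to 0.04, adjusted p = 0.326), and the inhibitor a 1.12-fold rise (0.17, SE 0.05, adjusted p = 0.0193). That rise did not pass without RPT replicate 1 (adjusted p = 0.0557), RPTi replicate 1 (0.0567) or RPTi replicate 3 (0.0589).

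Ctsc (ENSRNOG00000016496), for the dipeptidyl peptidase that activates the granule proteases of immune cells, had 105, 63 and 66 counts in RP, 72, 45 and 32 in RPT, and 73, 38 and 70 in RPTi. The ranges of the groups overlapped on the CPM scale, and no comparison passed. The interval was wide, from -1.10 to 0.12 on the log2 scale for thrombin, and took in the values of Ctsd (-0.35) and Ctsk (-0.36). Counts were few and the RPT libraries differed up to 1.93-fold in CPM. The part of each in that width was not tested.

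Ctsa (ENSRNOG00000015857), for the carboxypeptidase that also protects the lysosomal sialidase and beta-galactosidase in a shared complex, was at 569, 590.5 and 539 CPM in RP, 516, 549 and 482 CPM in RPT, and 581, 589.6 and 577 CPM in RPTi. RPT and RPTi did not overlap, and RP overlapped both. The log2 fold change with thrombin did not pass (-0.13, SE 0.06, adjusted p = 0.113), although it did without RPT replicate 2 (-0.18, adjusted p = 0.0418). The 1.13-fold rise with inhibitor (0.18, SE 0.06, adjusted p = 0.0308) was not called when RP replicate 1 was left out (adjusted p = 0.0514), nor without RPT replicate 1 (0.079), RPT replicate 3 (0.0776), RPTi replicate 1 (0.0797), RPTi replicate 2 (0.0807) or RPTi replicate 3 (0.064).

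**Figure D3:**
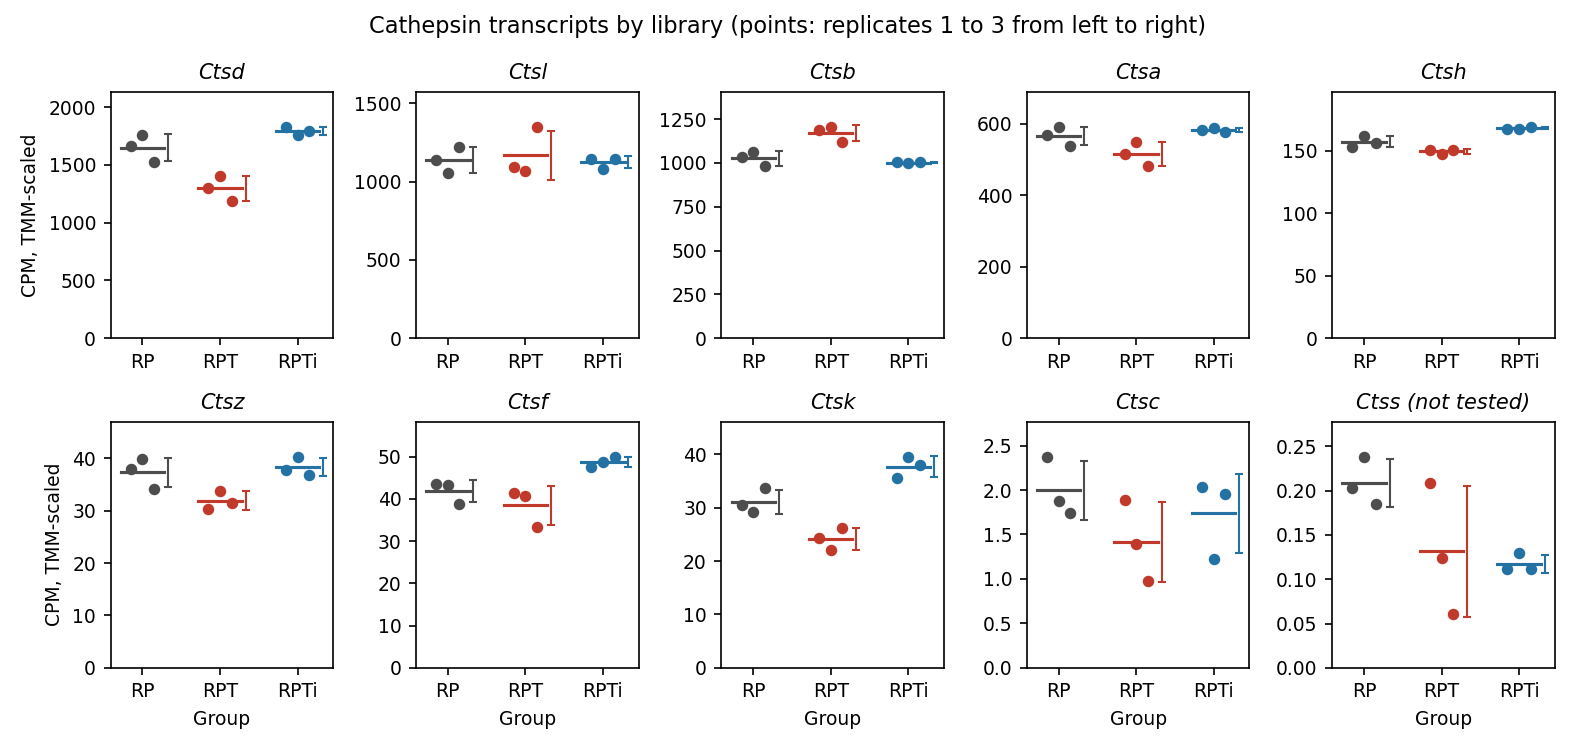
TMM-scaled CPM of each cathepsin in the 9 libraries, with a separate linear axis from 0 for each gene; points are replicates 1 to 3 from left to right, lines are means and bars the SD of 3 libraries. The RPT points of Ctsd, Ctsk and Ctsz lie below those of RP and RPTi, those of Ctsb lie above, and the ranges of Ctsl overlap in all 3 groups.

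Of 3 partners of Ctsa in its complex, 1 fell with thrombin, and 2 rose with inhibitor. These are 33.3% and 66.7% of the partners, beside 28.9% and 41.5% of all tested genes called. Glb1, the beta-galactosidase gene, fell 1.20-fold with thrombin (adjusted p = 0.0027) and rose 1.22-fold with inhibitor (adjusted p = 0.000688), and had 175 ± 2.51 CPM in RP, 146 ± 5.42 CPM in RPT and 179 ± 2.37 CPM in RPTi (SD, n = 3). Neu1, the sialidase gene, did not pass with thrombin (0.01, adjusted p = 0.938) and rose 1.27-fold with inhibitor (adjusted p = 0.00108). The third, Galns, did not pass in any comparison.

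Of 13 listed inhibitors of cysteine cathepsins 7 were in the table and 4 were tested. With thrombin 1 fell, and with added inhibitor 1 rose and 2 fell. These are 25% and 75% of those tested, beside 28.9% and 41.5% of all tested genes called. Cst3, for the secreted inhibitor cystatin C, was the most abundant, at 609 ± 69.5 FPKM in RP, 511 ± 41.4 FPKM in RPT and 901 ± 44.6 FPKM in RPTi (SD, n = 3). On the CPM scale it fell 1.21-fold with thrombin (adjusted p = 0.0349) and rose 1.85-fold with inhibitor (log2 fold change 0.89, SE 0.09, adjusted p = 4.4e-06), beside 0.64 in Ctsk, the largest change of a cathepsin. The fall did not pass without RP replicate 1, RP replicate 2, RPT replicate 1, RPT replicate 3 or RPTi replicate 1 (adjusted p up to 0.135). The RPTi libraries held 721, 769 and 694 CPM, above all RP libraries (414 to 528 CPM).

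Cst6 and Cstb fell when the inhibitor was added to thrombin. Cst6, for cystatin E/M, fell 3.76-fold between RPT and RPTi (log2 fold change -1.91, SE 0.21, adjusted p = 9.7e-06), from 5.42 ± 0.713 to 1.44 ± 0.239 CPM. Cstb, for the intracellular inhibitor stefin B, fell 1.21-fold (adjusted p = 0.00521). Neither passed with thrombin, and both were lower in RPTi than in RP. Cst6 was 3.10-fold lower (adjusted p = 0.000103), kept in all 17 alternatives. Cstb was 1.15-fold lower (adjusted p = 0.0432), a call lost in 8 of 17 alternatives. The thinly counted Fetub passed in no comparison (log2 fold change 0.33 with inhibitor).

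Genes that deliver or activate lysosomal proteases were read next. Of 12 tested, 1 rose and 3 fell with thrombin, with a median log2 fold change of -0.02, and 4 rose and none fell with inhibitor, with a median of 0.06 (-0.000707 and -0.00827 over all tested genes). Each time 33.3% of the list was called, beside 28.9% and 41.5% of all tested genes. Sort1, for the sorting receptor sortilin, fell 1.46-fold with thrombin (log2 fold change -0.54, SE 0.06, adjusted p = 3.1e-05) and rose 1.35-fold with inhibitor (adjusted p = 0.000102). The adaptor gene Gga2 fell 1.18-fold and rose 1.24-fold in the same order. Lgmn, for the protease legumain that processes several cathepsin precursors, rose 1.28-fold with inhibitor (adjusted p = 0.000204). Without scaling between libraries 1 of the 12 fell with inhibitor. Gnptab, for the enzyme that makes the mannose 6-phosphate tag, fell 1.20-fold with thrombin (adjusted p = 0.0219), a call lost without RP replicate 1, RP replicate 3, RPT replicate 1 or RPT replicate 2 (adjusted p up to 0.0779), and it did not pass with inhibitor (adjusted p = 0.539).

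The MiT/TFE factors changed at the transcript level as well. Of 3 tested, 2 rose with thrombin and all 3 fell with inhibitor, beside 13.6% of all tested genes that rose and 21.1% that fell. Their median log2 fold changes were 0.33 and -0.37, against -0.000707 and -0.00827 over all tested genes. Of the 2 members with a CACGTG match, Ctsd gave -0.35 and 0.47, and Ctsf -0.12 (not called) and 0.34. Any link between these factors and the matches was not tested. Tfe3 rose 1.26-fold (adjusted p = 0.00408) and then fell 1.30-fold (adjusted p = 0.00111), with 55.4 ± 1.16 CPM in RP, 69.7 ± 2.74 CPM in RPT and 53.8 ± 4.48 CPM in RPTi (SD, n = 3). Tfeb rose 1.28-fold with thrombin (adjusted p = 0.0379), a call lost without RP replicate 3, RPT replicate 1, RPT replicate 2 or any one RPTi library (adjusted p up to 0.148), and fell 1.30-fold with inhibitor (adjusted p = 0.021), lost without RPT replicate 2, RPTi replicate 1 or RPTi replicate 2 (up to 0.0866). Mitf fell 1.45-fold with inhibitor (adjusted p = 0.0142), lost without RPT replicate 1 or RPTi replicate 1 (up to 0.0739). Mitf was also lower in RPTi than in RP (log2 fold change -0.51, adjusted p = 0.0291). That call was lost without RP replicate 1, RP replicate 3 or RPTi replicate 1 (up to 0.127).

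**Figure D4:**
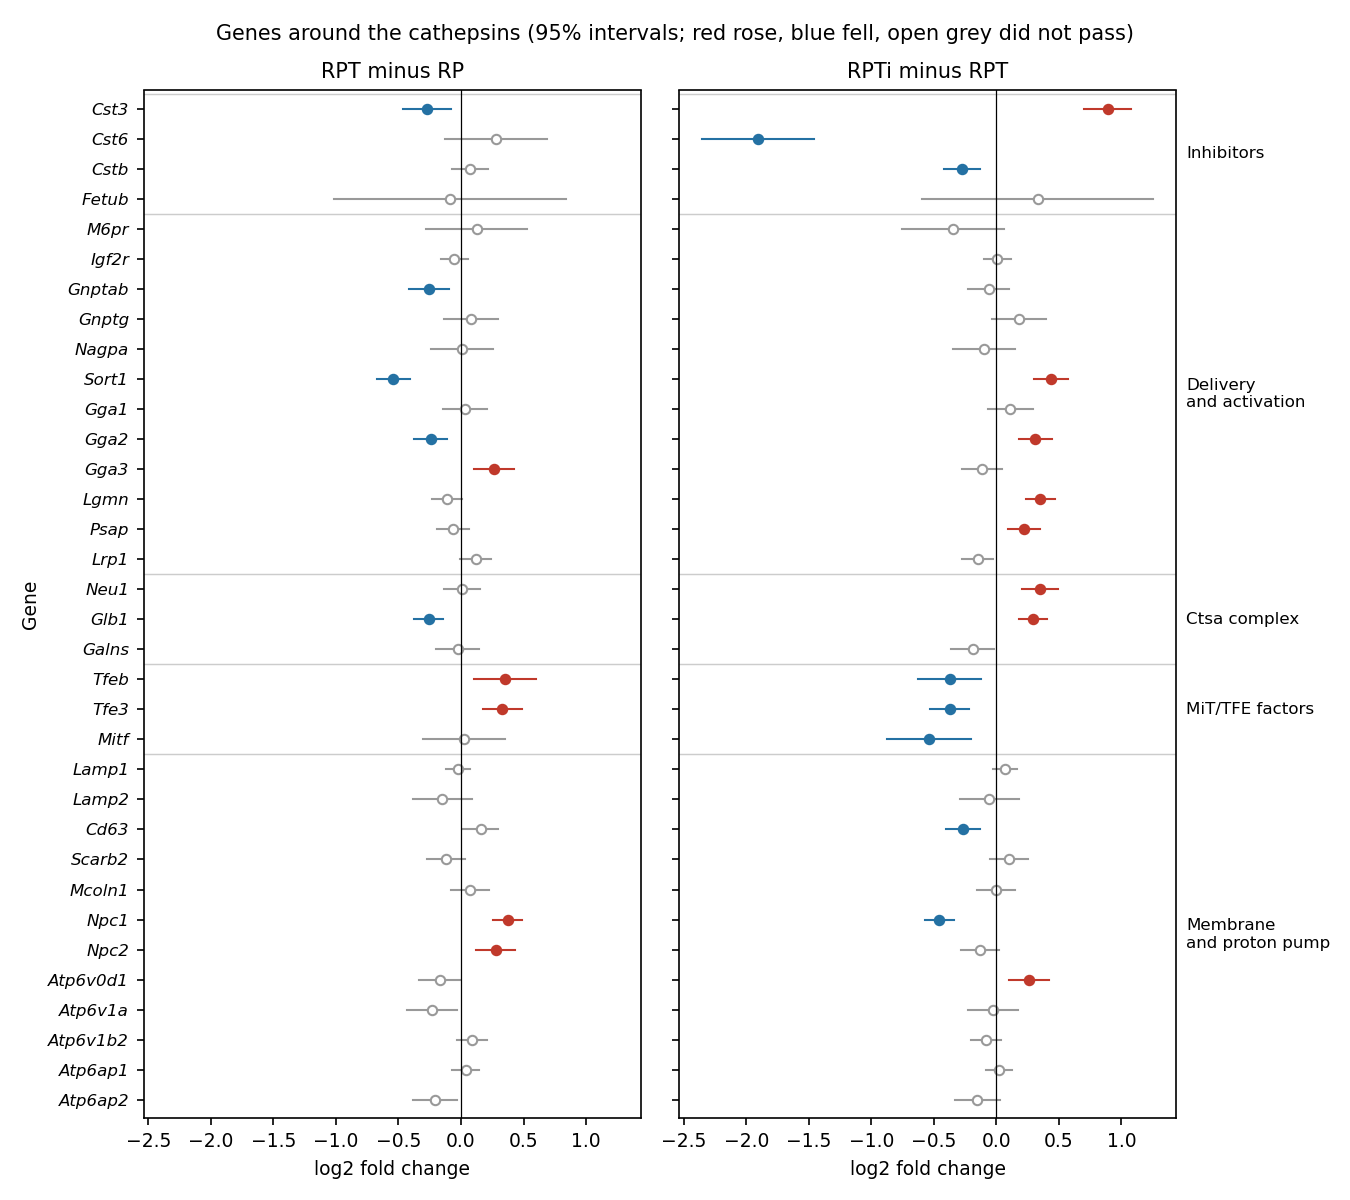
Fitted log2 fold changes with 95% intervals for the tested inhibitors, delivery and activation genes, Ctsa complex, MiT/TFE factors and lysosomal membrane or proton pump genes, for thrombin (left) and for added inhibitor (right); filled red rose, filled blue fell, open grey did not pass. Cst3 lies far right and Cst6 far left of 0 for added inhibitor, and the 3 MiT/TFE genes lie left of 0 there.

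Genes with the pattern most like that of Ctsk were sought among all tested genes with a mean of at least 5 CPM, by the root-mean-square difference of log2 CPM over the 9 libraries after centring each gene. The nearest 5 were Tle1 (difference 0.0568), Ick (0.063), Pde4dip (0.0656), Plxdc2 (0.0696) and Lrrc75b (0.0738). Having been picked for this pattern, they were like Ctsk lowest in RPT and highest in RPTi. Tle1, for instance, was at 18.2 ± 0.772 CPM in RP, 14.5 ± 1.18 CPM in RPT and 21.8 ± 1.31 CPM in RPTi (SD, n = 3). The nearest member to Ctsk was Ctsd (0.177). That is no like comparison, since the 5 genes were the closest of 9856 and the members are few. Among the members themselves Ctsa lay nearest to Ctsz (0.0637) and Ctsh (0.0652), and the pairs farthest apart that did not involve the thinly counted Ctsc were Ctsb with Ctsk (0.377) and Ctsb with Ctsd (0.299).

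Within groups, several members shared an order of libraries. In both RP and RPT, replicate 3 held the lowest Ctsa, Ctsb, Ctsc, Ctsd, Ctsf and Ctss and the highest Ctsk and Ctsl of its group. The ratio of Ctsl to Ctsd FPKM was accordingly 0.987 in RP replicate 3 beside 0.841 and 0.738 in the other RP libraries, and 1.39 in RPT replicate 3 beside 1.03 and 0.934. In RPTi the ratio was 0.755 to 0.786 in all 3 libraries. Ctsh and Ctsz kept no such order. Ctsh was lowest in RP replicate 1 and RPT replicate 2, and Ctsz in RP replicate 3 and RPT replicate 1. Over all tested genes, deviations of RP replicate 3 and RPT replicate 3 from their group means correlated at 0.0222. The order was read from these values, with no test.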

How the data were processed

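The authors deposited whole-number read counts and FPKM values per Ensembl gene for each of 9 libraries. Per the labels' protocols, RNA was poly-A selected and sequenced as paired reads. The submitters' processing notes name the build Rnor_6.0, HISAT2, HTSeq 0.11.2 and DESeq2 1.26.0 without roles; the sources used here do not give the annotation, filters or strand setting, so reads of overlapping or antisense genes cannot be told apart. The authors' FPKM equalled count over library total and a whole-number gene length, with no scaling between libraries, and served for levels and 1 alternative.

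Genes were kept by filterByExpr (minimum count 10, minimum total 15), which removed 0.0259% of counts. Libraries were scaled by TMM and 1 quasi-likelihood model with a coefficient per group was fitted to all 9 (edgeR 4.0.16, R 4.3.3). Benjamini-Hochberg adjusted p-values run over all 13856 tested genes, and all p-values are two-sided edgeR values unless another tool is named. SE and 95% intervals come from the F statistic. CPM are TMM-scaled. The script was tested on simulated data. No replicate pair was identical or within sampling noise. Alternatives were DESeq2 size factors, library totals alone, no low-count filter, at least 1 CPM in 3 libraries, the DESeq2 test (1.42.0), limma (3.58.1) on log2(FPKM + 1), only the 2 groups compared, a replicate block and leaving out each library; applying them to marker genes was decided after seeing the data.

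The members, lists and tests were chosen with earlier results of these data known. All 10 members are named. From each list of related genes, at most the 4 with the smallest F test p are named; the exceptions are the untested or thinly counted markers and Cd74, and Fcer1g, named to give all tested macrophage markers.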

Additional observations from a re-analysis of the deposited data

How the results depend on the processing

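Over 17 alternatives, the 27 fold changes of the 9 tested cathepsins gave 459 values. Of these 407 kept their direction and their side of the threshold, 36 lost a call, 5 gained one and 11 changed sign, none of the last in a called change. Ctsd and Ctsk (both comparisons with RPT) and Ctsb and Ctsf (RPTi minus RPT) kept their calls throughout. Between RPT and RPTi, the number of cathepsins that rose was 6, and 3 with library totals alone. Between RP and RPTi it was 1, and 0 with library totals alone or with limma on log2(FPKM + 1), and 2 with only the 2 groups compared. Over all groups 6 differed, and 3 with library totals alone. Leaving out each library in turn gave 0 to 1 rising and 2 to 4 falling for RPT minus RP, 3 to 6 rising and 1 falling for RPTi minus RPT, 0 to 2 rising and 0 falling for RPTi minus RP, and 3 to 6 differing over all groups; fewer libraries entered each of those fits. For RPTi minus RP, Ctsa changed sign with library totals alone (-0.0109) and limma (-0.0102), as did Ctsz (-0.0145 and -0.0126). Leaving out each library, Ctsz ran from -0.0199 to 0.0815 for RPTi minus RP, below 0 without RP replicate 3 or RPTi replicate 2 (-0.00078). Ctsl ran from -0.0769 to 0.0347 for RPTi minus RP (above 0 without RP replicate 3 or RPTi replicate 2, 0.00668), from -0.0792 to 0.0981 for RPT minus RP (below 0 without RPT replicate 3 or RP replicate 2, -0.0209) and from -0.118 to 0.0589 for RPTi minus RPT (above 0 without RPT replicate 3). The cause of these changes was not tested. Over all tested genes, deviations of same-numbered libraries correlated at -0.114 to 0.124 (2 of 9 above 0.1), and those of other pairs at -0.161 to 0.143. The main fit did not take the numbers as pairs. Some genes kept 1 order, as Ctsa was highest in replicate 2 and lowest in replicate 3 of every group. A replicate block called more genes in each comparison, 5074 in place of 3999 for RPT minus RP. It gave 2 cathepsins rising between RP and RPTi (Ctsf and Ctsk) and called Ctsa as lower in RPT than in RP (-0.13, adjusted p = 0.0201). A shared source of same-numbered libraries can therefore not be excluded. Among the members, only Ctsc and Ctss were thinly counted.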

Other observations

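Of 12 tested genes of the lysosomal membrane and proton pump, 2 rose and none fell with thrombin, and 1 rose and 2 fell with the inhibitor (5 fell without scaling between libraries). That is 16.7% and 25.0% of the list, beside 28.9% and 41.5% of all tested genes, and the list's median log2 fold changes were 0.01 and -0.04. Npc1, which exports cholesterol from lysosomes, rose 1.29-fold with thrombin (edgeR adjusted p = 0.000211) and fell 1.37-fold with the inhibitor (adjusted p = 2e-05), and had 104 ± 1.47 CPM in RP, 134 ± 1.48 CPM in RPT and 97.8 ± 3.07 CPM in RPTi (SD, n = 3). Its partner Npc2 rose with thrombin (log2 fold change 0.28, adjusted p = 0.0113) and did not pass with the inhibitor (-0.13, adjusted p = 0.165). Atp6ap2, for a proton pump subunit, passed in neither of these comparisons and was lower in RPTi than in RP (log2 fold change -0.36, adjusted p = 0.00698). The tetraspanin gene Cd63 fell with the inhibitor (-0.27, adjusted p = 0.00483).

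Beside the 10 members, the table held 2 further cathepsin genes. Ctse, for another aspartic cathepsin, had 1 count over the 9 libraries, and Ctsw, for a cathepsin of cytotoxic lymphocytes, had 9 counts, at most 2 in any library. Neither passed the filter.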
